A study of Mus musculus with 24 samples.

Results

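The genes described here make and load MHC class I, the cell surface complex that shows peptides from inside a cell to CD8 T cells. They were chosen by name: 10 genes of the mouse class I pathway, namely the heavy chains H2-D1, H2-K1 and H2-T23, the light chain B2m, the peptide transporter subunits Tap1 and Tap2, tapasin (Tapbp), the immunoproteasome subunits Psmb8 and Psmb9, and the transcriptional co-activator Nlrc5. Of the 55471 genes counted in the first batch of libraries, all 10 were present; 9 of the 10 were present among the 13915 genes listed for the second batch, where H2-T23 was not among the genes analysed. RNA was sequenced from EO771, a mouse mammary carcinoma line that arose spontaneously in a C57BL/6 animal, and from derivatives of it grown in culture. X2 carried the empty retroviral vector, CCR7 carried Ccr7 in the same vector and was sorted as negative for podoplanin (PDPN), CCR7-PDPN carried Ccr7 and was sorted as high for PDPN, and X2-PDPN carried the empty vector and was enriched by sorting for cells that had turned on PDPN spontaneously. Every derivative, the control included, also expressed tdTomato from the retroviral construct and had been selected with G418. The 24 libraries formed 6 groups of 4: batch 1 was made up of X2, CCR7 and CCR7-PDPN, whereas X2, X2-PDPN and CCR7-PDPN were sequenced as batch 2. Replicates were technical, and each derivative was a single sorted population without clonal selection, so the p-values below measure only the spread between these samples and not the spread between independently made populations.

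As background, cytosolic proteins are cut by the proteasome, and in cells that respond to interferon the inducible subunits Psmb8, Psmb9 and Psmb10 take the place of the constitutive catalytic subunits Psmb5, Psmb6 and Psmb7. Peptides then pass through the Tap1-Tap2 transporter into the endoplasmic reticulum, where tapasin holds empty class I molecules beside the transporter until a peptide binds, and the heavy chain reaches the surface only together with B2m. Nlrc5 is the co-activator that drives the promoters of most of these genes, and loss of class I from tumour cells is a well known way in which they become harder for CD8 T cells to recognise.

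Because most of the 10 genes moved together, the sequences upstream of their start sites are shown first. RefSeq promoter windows (GRCm38.p6) were found for 8 of the 10 genes and not for Tap2 and Nlrc5. The bases shown lie directly upstream of an annotated transcript start, at chr17:35262894-35263093 on the + strand for H2-D1, chr17:34000334-34000533 on the - strand for H2-K1, chr2:122147487-122147686 on the + strand for B2m, chr17:34187306-34187555 on the + strand for Tap1 and chr17:34197995-34198194 on the + strand for Psmb8. The stretches of H2-D1 and Psmb8 lie inside the wider gene limits of the Ensembl annotation. Capitals mark matches on either strand to 6 sets of letters: the kappaB site GGGATTCCC, the X2 box core TGACG at which the Nlrc5 complex is known to assemble, the CCAAT box, the gamma-activated site TTCNNNGAA, the interferon-stimulated response element core GAAANNGAA, and AANNGAAA, an interferon regulatory factor motif that can overlap the preceding one. The letters of the kappaB and both interferon motifs were settled after the sequences had been seen.
H2-D1: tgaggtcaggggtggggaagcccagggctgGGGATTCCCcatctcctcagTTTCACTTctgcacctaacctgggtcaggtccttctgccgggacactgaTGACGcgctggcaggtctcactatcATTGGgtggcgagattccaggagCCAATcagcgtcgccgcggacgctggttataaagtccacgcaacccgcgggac
H2-K1: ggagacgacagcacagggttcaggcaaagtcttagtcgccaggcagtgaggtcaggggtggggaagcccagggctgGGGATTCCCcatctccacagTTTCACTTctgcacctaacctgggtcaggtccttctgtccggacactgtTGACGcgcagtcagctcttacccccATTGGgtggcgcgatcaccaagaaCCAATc
B2m: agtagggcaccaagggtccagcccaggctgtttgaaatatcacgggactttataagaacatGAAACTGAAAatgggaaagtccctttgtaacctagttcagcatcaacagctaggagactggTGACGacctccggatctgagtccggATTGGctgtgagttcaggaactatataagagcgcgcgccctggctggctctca
Tap1: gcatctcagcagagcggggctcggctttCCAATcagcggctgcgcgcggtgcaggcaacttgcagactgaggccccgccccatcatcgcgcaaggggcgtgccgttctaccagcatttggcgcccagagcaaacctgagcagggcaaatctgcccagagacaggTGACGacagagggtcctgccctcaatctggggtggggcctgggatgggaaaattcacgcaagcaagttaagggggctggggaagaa
Psmb8: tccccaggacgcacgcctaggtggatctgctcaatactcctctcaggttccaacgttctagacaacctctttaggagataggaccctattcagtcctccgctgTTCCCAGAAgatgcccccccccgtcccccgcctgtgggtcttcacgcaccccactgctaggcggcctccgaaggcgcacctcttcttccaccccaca

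In H2-D1 and H2-K1 the same matches stood in the same order: the kappaB site (from position -170 and -124 relative to the start), the reverse complement of AANNGAAA (-150 and -104), TGACG (-101 and -55), ATTGG (-76 and -30) and CCAAT (-53 and -6). H2-K1 also had a window from another annotated start, which is not printed. Counted from that start, the same matches lay at -110, -90, -41 and -16, with CCAAT at 9, after the start. The stretch of B2m held GAAACTGAA at -139 with the overlapping AACTGAAA at -137, a match to AANNGAAA, then TGACG at -78 and ATTGG at -53. Tap1 held CCAAT at -222 and TGACG at -86, and its window is shared over 275 bases (chr17:34187306-34187580) with that of Psmb9, which is read from the opposite strand. Both genes therefore have the same TGACG and the same CCAAT. Psmb8 held 1 match, TTCCCAGAA at -97. Of the windows not printed, that of Tapbp held ATTGG at -248 and -165, and that of H2-T23 held TTTCTCTT at -124 with the overlapping TTCTCTTTC at -123, TTTCTGTT at -81 and CCAAT at -52. Among all 32851 promoter windows, each taken whole from 250 bases before to 50 after the start, 0.353% held the kappaB site, 8.56% GAAANNGAA, 8.3% TTCNNNGAA, 20.8% TGACG, 23.9% AANNGAAA and 37.4% CCAAT. Because the letters of the kappaB and both interferon motifs were settled after the sequences had been seen, these shares cannot be read as enrichment. These matches describe letters and do not show that a factor binds there.

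Each library held 22275468 to 35721027 counted reads, and 13261 genes in batch 1 and 13314 in batch 2 were expressed highly enough to be tested. The labels were first checked on the manipulated genes. Ccr7 stood at 2715 to 2861 CPM (read counts scaled to a common library size, here always after TMM scaling) in CCR7 and at 2813 to 3424 CPM in CCR7-PDPN, against 0.165 to 0.524 CPM in X2 and 0.445 to 0.954 CPM in X2-PDPN. Pdpn stood at 23.6 to 26.9 CPM in CCR7-PDPN and 25.1 to 26.0 CPM in X2-PDPN, against at most 0.265 CPM in X2 and at most 0.619 CPM in CCR7. Of the markers of mammary carcinoma cells, Krt8, Vim and Twist1 were well expressed, whereas Epcam, Krt18, Krt5, Krt14 and Cdh1 had 0 to 9 counts in any batch 1 library. Apart from Krt8, the listed epithelial markers were thus all but absent from this line. Levels are given as CPM per library in the order of replicates 1 to 4, and levels of different genes are compared only as TPM, transcript levels that also allow for gene length.

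Measured per length, the 9 expressed genes differed widely in level. In X2 of batch 1, B2m was the highest at 3346 TPM ± 17.2 (SD, n = 4), followed by H2-D1 at 1076 ± 15.7, Tapbp at 173 ± 6.45, H2-K1 at 105 ± 2.62, Tap2 at 88.9 ± 2.08 and Tap1 at 42.8 ± 1.78. Nlrc5 (15.9 ± 0.885) and Psmb8 (15.7 ± 0.422) did not differ beyond their spread, and Psmb9 was the lowest at 4.34 ± 0.149 TPM. This order rests on the summed exon length of each gene, which need not be the length of the transcripts present. H2-T23, the heavy chain of the non-classical molecule Qa-1, had 0, 2, 0 and 3 counts in the X2 libraries of batch 1, 1, 0, 1 and 1 in CCR7, and 1, 0, 1 and 1 in CCR7-PDPN. All of these are at or under a floor of 3 counts, so no fold was computed for H2-T23 and any difference was not detectable at this depth.

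The heavy chain H2-D1 (Ensembl ENSMUSG00000073411, chr17:35262730-35267499 on the + strand, GRCm38) stood at 749, 732, 724 and 749 CPM in X2, 617, 615, 648 and 629 CPM in CCR7, and 489, 483, 481 and 468 CPM in CCR7-PDPN of batch 1. In batch 2 the H2-D1 level was 763, 751, 732 and 789.5 CPM in X2, 474, 481, 465 and 473 CPM in X2-PDPN, and 532, 502, 504 and 486 CPM in CCR7-PDPN. Its groups formed 3 separate steps in batch 1, and in batch 2 both PDPN-sorted derivatives lay far below X2, with CCR7-PDPN just above X2-PDPN. H2-K1 (ENSMUSG00000061232, chr17:33996017-34000347, - strand), the other classical heavy chain, was at 80.2, 82.5, 80.6 and 84.2 CPM in X2, 55.2, 52.1, 60.1 and 56.7 CPM in CCR7, and 38.6, 38.2, 39.3 and 36.2 CPM in CCR7-PDPN of batch 1. The batch 2 libraries gave 83.5, 82.8, 84.3 and 87.6 CPM of H2-K1 in X2, 37.1, 40.4, 41.2 and 38.3 CPM in X2-PDPN, and 41.6, 40.0, 41.0 and 39.2 CPM in CCR7-PDPN. H2-K1 showed the same 3 steps, and X2-PDPN and CCR7-PDPN overlapped. Part of the heavy chain signal cannot be assigned with certainty: 5.56% of the 75-base stretches of H2-D1 and 3.10% of those of H2-K1 also occur in annotated transcripts of other genes.

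B2m (ENSMUSG00000060802, chr2:122147686-122153083, + strand), the light chain that all class I heavy chains need, lies on another chromosome. Its libraries read 769, 755, 771 and 768 CPM in X2, 519, 589, 592 and 563 CPM in CCR7, and 405, 398, 408 and 442 CPM in CCR7-PDPN of batch 1. In batch 2, B2m was at 827, 759.7, 787 and 805 CPM in X2, 413, 397, 397 and 409 CPM in X2-PDPN, and 417, 406, 401 and 401 CPM in CCR7-PDPN. As for H2-K1, no library of a derivative reached the lowest X2 library of its batch, and the PDPN-sorted derivatives overlapped each other.

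**Figure D1:**
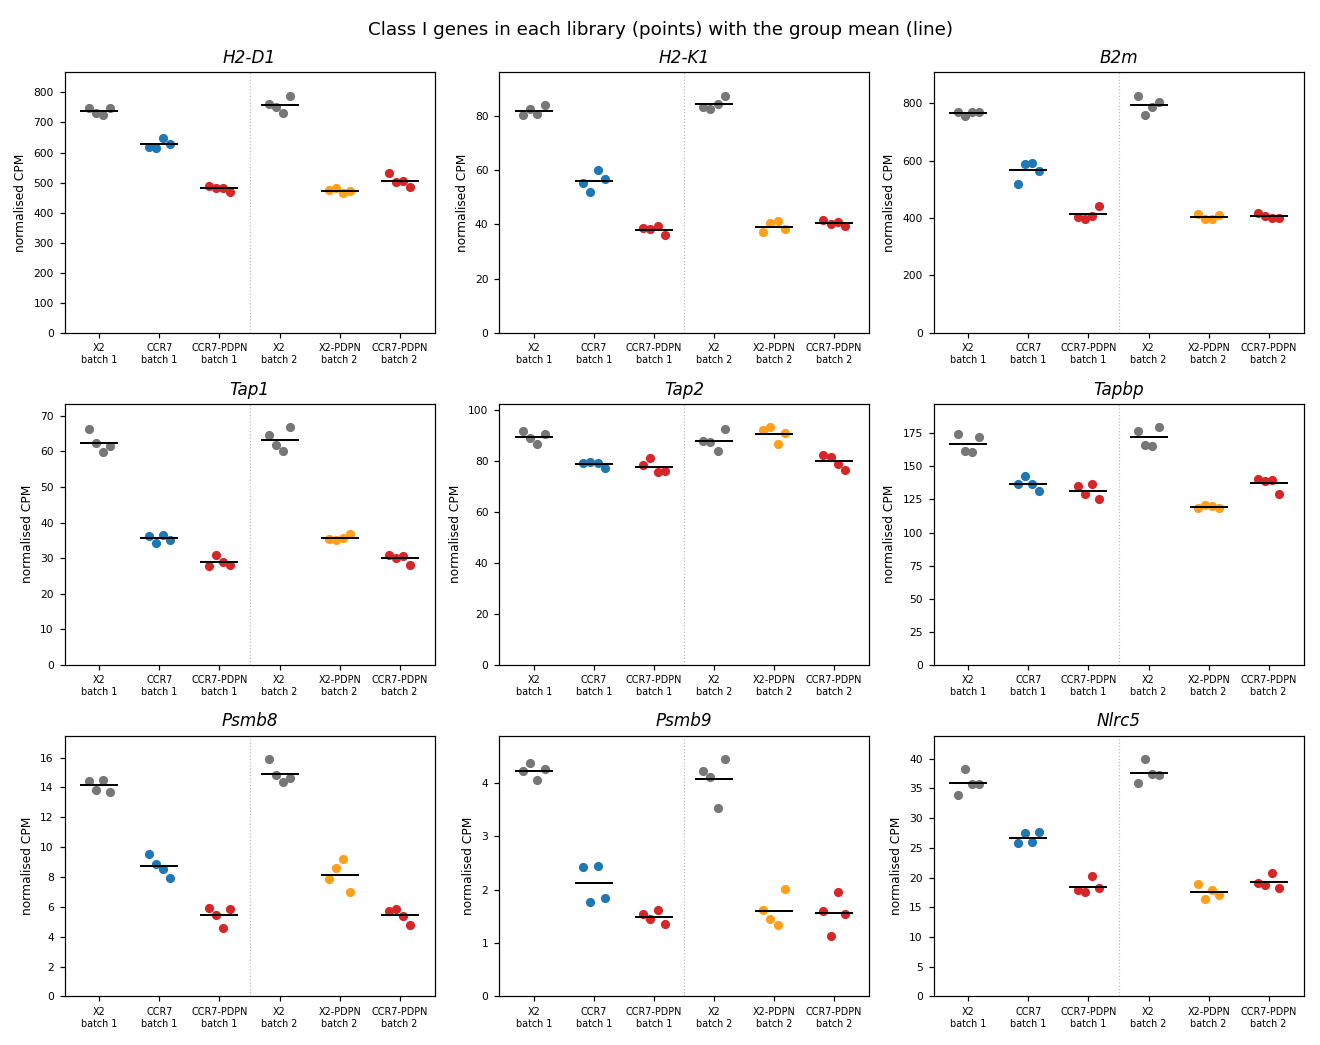
TMM-scaled CPM (y axis, from 0) of the 9 tested class I genes in every library, by derivative and batch (x axis); points are libraries, lines are means of 4, and the dotted line parts the batches. In all panels but Tap2 the X2 libraries lie above every other library of their batch; in the Tap2 panel X2-PDPN overlaps X2.

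The transporter subunits behaved differently from each other. Tap1 (ENSMUSG00000037321, chr17:34187553-34197225, + strand) was measured at 66.2, 62.3, 59.7 and 61.5 CPM in X2, 36.3, 34.4, 36.5 and 34.98 CPM in CCR7, and 27.9, 30.9, 29.0 and 28.2 CPM in CCR7-PDPN of batch 1. Batch 2 gave Tap1 levels of 64.7, 61.8, 60.05 and 66.8 CPM in X2, 35.4, 35.2, 35.7 and 36.9 CPM in X2-PDPN, and 31.0, 30.1, 30.5 and 27.9 CPM in CCR7-PDPN. Tap1 was thus lower in every library of every derivative than in X2, and lowest in CCR7-PDPN of either batch. Tap2 (ENSMUSG00000024339, chr17:34203527-34216321, + strand), its partner, stood at 91.6, 89.1, 86.4 and 90.5 CPM in X2, 79.0, 79.4, 79.0 and 77.1 CPM in CCR7, and 78.3, 80.9, 75.7 and 75.8 CPM in CCR7-PDPN of batch 1. The batch 2 values of Tap2 were 87.6, 87.3, 83.9 and 92.3 CPM in X2, 92.0, 93.1, 86.8 and 91.0 CPM in X2-PDPN, and 82.4, 81.6, 78.8 and 76.5 CPM in CCR7-PDPN. Tap2 therefore moved little, and X2-PDPN overlapped X2. Tapbp (ENSMUSG00000024308, chr17:33915899-33929292, + strand), which bridges the transporter and the heavy chain, was at 175, 162, 161 and 172 CPM in X2, 137, 142, 137 and 131 CPM in CCR7, and 135, 129, 137 and 125 CPM in CCR7-PDPN of batch 1. In batch 2, Tapbp read 177, 166, 166 and 179.5 CPM in X2, 118, 121, 119.8 and 119 CPM in X2-PDPN, and 141, 139, 139.9 and 129 CPM in CCR7-PDPN. Tapbp was lowest in X2-PDPN, and CCR7 and CCR7-PDPN overlapped. Overlapping genes limit these counts: 8.27% of the 75-base stretches of Tap2 and 18.6% of those of Tapbp are shared with other annotated transcripts, against 2.40% for Tap1.

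Psmb8 and Psmb9 code for inducible catalytic subunits of the proteasome. Psmb8 (ENSMUSG00000024338, chr17:34197721-34201454, + strand) read 14.5, 13.8, 14.5 and 13.7 CPM in X2, 9.54, 8.88, 8.53 and 7.92 CPM in CCR7, and 5.89, 5.48, 4.61 and 5.89 CPM in CCR7-PDPN of batch 1. The batch 2 libraries had 15.9, 14.8, 14.4 and 14.6 CPM of Psmb8 in X2, 7.86, 8.57, 9.19 and 6.97 CPM in X2-PDPN, and 5.69, 5.88, 5.40 and 4.79 CPM in CCR7-PDPN. For Psmb8 the 3 groups of each batch did not overlap, with CCR7-PDPN at the bottom both times; 9.97% of its 75-base stretches are shared with another annotated transcript. Psmb9 (ENSMUSG00000096727, chr17:34181987-34187764, - strand) was at 4.23, 4.36, 4.05 and 4.25 CPM in X2, 2.42, 1.78, 2.43 and 1.85 CPM in CCR7, and 1.54, 1.44, 1.62 and 1.35 CPM in CCR7-PDPN of batch 1. In batch 2, Psmb9 stood at 4.22, 4.10, 3.53 and 4.44 CPM in X2, 1.61, 1.45, 1.34 and 2.00 CPM in X2-PDPN, and 1.60, 1.13, 1.96 and 1.55 CPM in CCR7-PDPN. X2 lay above every derivative, and the PDPN-sorted derivatives of batch 2 overlapped. Psmb9 rests on 35 to 134 counts per library, so its values carry the widest error of the set.

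Nlrc5 (ENSMUSG00000074151, chr8:94434356-94527272, + strand), the co-activator, stood at 34.0, 38.3, 35.7 and 35.8 CPM in X2, 25.8, 27.4, 25.9 and 27.6 CPM in CCR7, and 17.9, 17.5, 20.3 and 18.2 CPM in CCR7-PDPN of batch 1. Batch 2 gave Nlrc5 at 35.9, 39.9, 37.4 and 37.2 CPM in X2, 18.9, 16.4, 17.99 and 17.1 CPM in X2-PDPN, and 19.1, 18.8, 20.8 and 18.3 CPM in CCR7-PDPN. Nlrc5 fell in the same steps as the heavy chains, and the highest X2-PDPN library lay above 2 of the CCR7-PDPN libraries.

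The first comparison asked what differed between cells with and without the receptor. Class I genes were lower in CCR7 than in X2: 9 of 9 tested genes fell (edgeR quasi-likelihood test, Benjamini-Hochberg adjusted over all genes, adjusted p under 0.05), against 25.2% of all genes tested, and 0 of 9 passed the 2-fold threshold as well, against 3.18% of all genes. In 9 of 9 genes every CCR7 library lay below every X2 library, a pattern seen in 22.8% of all genes. Psmb9 fell by 0.98 on the log2 scale (SE 0.121, adjusted p = 7.55e-07), Tap1 by 0.81 (SE 0.0434, adjusted p = 1.11e-12) and Psmb8 by 0.69 (SE 0.0743, adjusted p = 8.76e-08). The heavy chain H2-K1 fell by 0.55, B2m by 0.44, Nlrc5 by 0.43, Tapbp by 0.29, H2-D1 by 0.24 and Tap2 by 0.18. The median over the 9 genes was -0.44, while the median over all genes lay within 0.01 of 0 in each of the 6 comparisons. Psmb9 stood just short of the 2-fold threshold. Because these are bulk libraries, fewer cells that express a gene and less RNA per cell cannot be told apart here or below.

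Next, CCR7-PDPN was set against CCR7, which differ in PDPN status with the receptor present in both. Here 7 of 9 genes fell (20.7% of all genes did), with 0 past 2-fold (2.6% of all genes), and in 7 of 9 every CCR7-PDPN library was below every CCR7 library (16.7% of all genes). Psmb8 fell by 0.68 (SE 0.0835, edgeR adjusted p = 1.73e-06), H2-K1 by 0.56 (SE 0.0431, adjusted p = 1.93e-09) and Nlrc5 by 0.53 (SE 0.0538, adjusted p = 1.14e-07). Psmb9 fell by 0.52, B2m by 0.45, H2-D1 by 0.39 and Tap1 by 0.29. Neither Tap2 nor Tapbp passed the test: the log2 difference was -0.02 for Tap2 (95% interval -0.09 to 0.05, adjusted p = 0.712) and -0.06 for Tapbp (-0.14 to 0.02, adjusted p = 0.221). The median over the 9 genes was -0.45.

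CCR7-PDPN against X2 was the comparison made in both batches, with no library in common between them. In batch 1, 9 of 9 genes fell (30.6% of all genes), 4 of them more than 2-fold (5.36% of all genes), and in 9 of 9 the libraries did not overlap (29.5% of all genes). In batch 2 the counts were again 9 of 9 (32.8%), 4 more than 2-fold (5.67%) and 9 without overlap (29.4%). The 4 genes past 2-fold were H2-K1, Tap1, Psmb8 and Psmb9 in both batches. Psmb9 was 2.83-fold lower in batch 1 and 2.61-fold lower in batch 2, Psmb8 2.58-fold and 2.74-fold, Tap1 2.15-fold and 2.12-fold, and H2-K1 2.15-fold and 2.09-fold. Nlrc5 was 1.95-fold lower both times, B2m 1.85-fold and 1.96-fold, H2-D1 1.54-fold and 1.50-fold, Tapbp 1.27-fold and 1.25-fold, and Tap2 1.15-fold and 1.1-fold. In log2 units the edgeR estimate for Tap1 was -1.11 (SE 0.0441, adjusted p = 4.19e-15) in batch 1 and -1.08 (SE 0.0414, adjusted p = 3.76e-26) in batch 2. The median over the 9 genes was -0.96 in batch 1 and -0.97 in batch 2. A direct test of the difference between the batches gave -0.12 to 0.09 in log2 units for the 9 genes. By edgeR 0 of 9 were called, 0 of 9 had an unadjusted p under 0.05, and DESeq2 called 0 as well. Over all 13690 genes in that fit, 0% were called by edgeR or DESeq2 and 2.14% had an unadjusted p under 0.05.

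**Figure D2:**
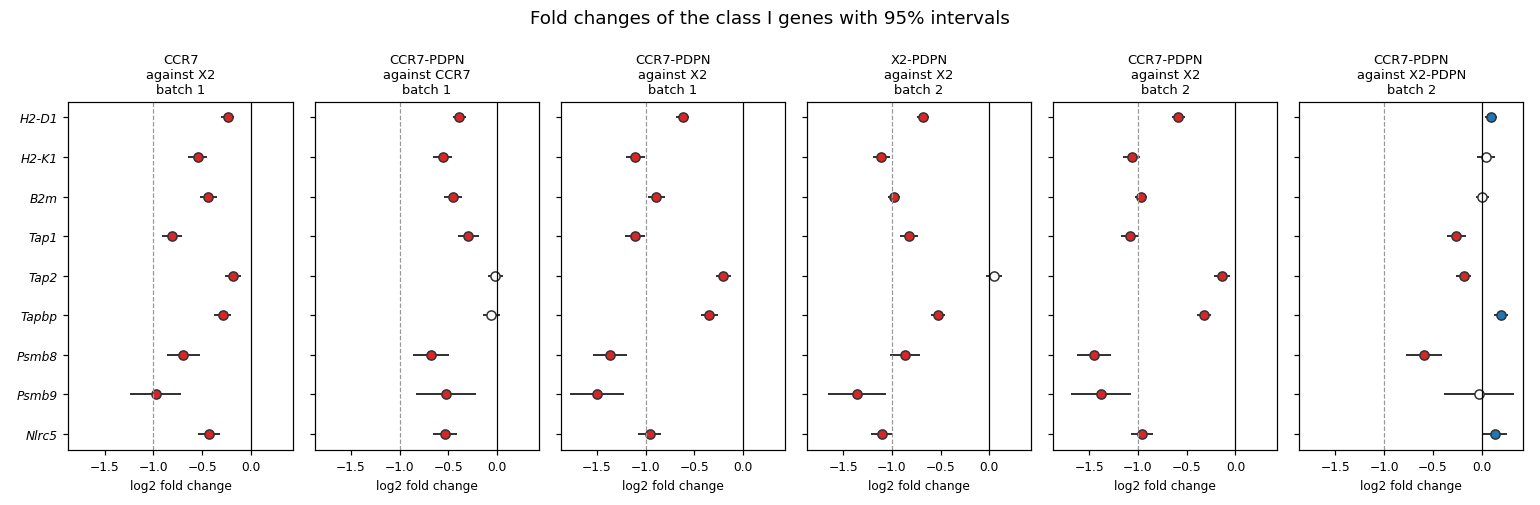
Log2 fold change (x axis, points, with 95% intervals as bars) of the 9 tested class I genes (y axis) in the 6 comparisons within batches; red points are lower and blue points higher at adjusted p under 0.05, open points did not pass, and the dashed line marks a 2-fold fall. Points sit left of 0 in every panel but the last, except Tap2 at 0.05 in X2-PDPN against X2; in CCR7-PDPN against X2-PDPN, 3 genes are lower and 3 higher.

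X2-PDPN against X2 asked what accompanies PDPN in cells without the receptor. Of 9 genes 8 fell (28.5% of all genes), 3 of these more than 2-fold (1.55% of all genes), and in 8 of 9 every X2-PDPN library lay below every X2 library (25.8% of all genes). The genes past 2-fold were Psmb9 (2.56-fold lower), H2-K1 (2.15-fold lower) and Nlrc5 (2.14-fold lower). B2m stood just short of the threshold at 1.97-fold lower, with a log2 difference of -0.98 (SE 0.0265, edgeR adjusted p = 7.56e-31). Psmb8 fell by 0.87 on the log2 scale, Tap1 by 0.82, H2-D1 by 0.68 and Tapbp by 0.53. Tap2 did not pass the test, at 0.05 (95% interval -0.02 to 0.11, adjusted p = 0.226). The median over the 9 genes was -0.87.

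Both PDPN-sorted derivatives were compared directly in batch 2, where they differ in the receptor. Of 9 genes 3 were lower in CCR7-PDPN than in X2-PDPN (32% of all genes), 3 were higher (31.2% of all genes) and 3 did not pass, and the median was 0.01. Psmb8 was lower by a log2 difference of -0.59 (SE 0.0872, edgeR adjusted p = 1.37e-07), Tap1 by -0.26 (SE 0.0437, adjusted p = 1.58e-06) and Tap2 by -0.19 (SE 0.0337, adjusted p = 6.55e-06). For these 3 every CCR7-PDPN library was below every X2-PDPN library, as for 27.8% of all genes. Tapbp was higher by 0.20 (adjusted p = 2.72e-07) and H2-D1 by 0.10 (adjusted p = 0.00203), each without overlap, as for 26.9% of all genes. Nlrc5 was higher by 0.14 (adjusted p = 0.0315) with overlapping libraries, and this call was lost with upper-quartile scaling at 0.12 (adjusted p = 0.0675) and without CCR7-PDPN replicate 3 at 0.09 (adjusted p = 0.167), without X2-PDPN replicate 2 at 0.10 (adjusted p = 0.142) or without X2-PDPN replicate 4 at 0.12 (adjusted p = 0.0808). The differences that did not pass were 0.04 for H2-K1 (95% interval -0.04 to 0.12, adjusted p = 0.360), 0.01 for B2m (-0.05 to 0.06, adjusted p = 0.806) and -0.03 for Psmb9 (-0.38 to 0.32, adjusted p = 0.906). Comparisons with X2 within a batch share the X2 libraries, and the comparisons of batch 1 also share those of CCR7 or CCR7-PDPN, so their values are not independent of each other.

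Whether the PDPN difference depended on the receptor was tested in a fit to all 24 libraries, as the difference of CCR7-PDPN from CCR7 minus the difference of X2-PDPN from X2. The first difference comes from batch 1 and the second from batch 2, so receptor and batch cannot be told apart in this contrast. The pairs also differ in sorting, since CCR7 was sorted as negative for PDPN while no such sort is described for X2. In 7 of 9 genes the fall with PDPN was smaller in the CCR7 pair than in the X2 pair (20.3% of all genes were called in that direction), and 0 went the other way. The edgeR estimates in log2 units were 0.83 for Psmb9 (SE 0.211, adjusted p = 0.00151), 0.57 for Nlrc5 (SE 0.0751, adjusted p = 9.81e-08), 0.55 for H2-K1 (SE 0.0560, adjusted p = 3.54e-10) and 0.53 for Tap1 (SE 0.0602, adjusted p = 3.61e-09). They were 0.53 for B2m, 0.47 for Tapbp and 0.30 for H2-D1. Psmb8 at 0.19 (95% interval -0.04 to 0.43, adjusted p = 0.184) and Tap2 at -0.06 (-0.16 to 0.03, adjusted p = 0.312) did not pass.

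Ratios between partner subunits within a library describe the unequal falls without any scaling between libraries. Psmb8 replaces Psmb5 in the immunoproteasome, and the ratio of their TPM in batch 1 was 0.0561 ± 0.00265 (SD, n = 4) for X2, 0.0462 ± 0.00232 for CCR7 and 0.0311 ± 0.00249 for CCR7-PDPN. Batch 2 gave 0.0580 ± 0.000645 for X2, 0.0330 ± 0.00470 for X2-PDPN and 0.0290 ± 0.00317 for CCR7-PDPN. Psmb9 over Psmb6 was 0.0185, 0.00951 and 0.00642 in the same order of batch 1, and 0.0178, 0.00788 and 0.00682 in batch 2. By these ratios Psmb8 and Psmb9 were a minor share beside Psmb5 and Psmb6 in X2 already and a smaller one in the derivatives. The TPM used summed exon lengths of 3381 bases for Psmb8 and 3660 for Psmb9. Those of Psmb5 and Psmb6 were 899 and 1872 bases. The size of the share depends on these lengths and is approximate, while its change between groups does not depend on them. Tap1 over Tap2 was 0.482 ± 0.0127 for X2, 0.312 ± 0.00911 for CCR7 and 0.258 ± 0.00857 for CCR7-PDPN in batch 1; the batch 2 values were 0.498 ± 0.00893 for X2, 0.273 ± 0.0110 for X2-PDPN and 0.258 ± 0.00676 for CCR7-PDPN. The summed heavy chains H2-K1 and H2-D1 over B2m went the other way, with 0.353 ± 0.00620 for X2, 0.400 ± 0.0221 for CCR7 and 0.416 ± 0.0263 for CCR7-PDPN, while batch 2 gave 0.350 ± 0.0121 for X2, 0.419 ± 0.0109 for X2-PDPN and 0.444 ± 0.00928 for CCR7-PDPN.

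Each of the 4 ratios was tested in the 6 comparisons by a two-sided exact permutation test of 4 libraries against 4, for which 0.0286 is the smallest p possible. Of 24 tests 19 reached it (adjusted p = 0.0361 over the 24), and in these 19 the libraries did not overlap. The 5 that missed were all 4 ratios in CCR7-PDPN against X2-PDPN, with exact permutation p = 0.257 for Psmb8 over Psmb5 (log2 difference -0.18), p = 0.343 for Psmb9 over Psmb6 (-0.22), p = 0.114 for Tap1 over Tap2 (-0.08) and p = 0.0571 for the heavy chains over B2m (0.08), together with the heavy chains over B2m in CCR7-PDPN against CCR7 (0.06, p = 0.343). For Psmb8 the fitted level differed between the PDPN-sorted derivatives while its ratio to Psmb5 did not pass, and Psmb5 itself was lower in CCR7-PDPN by a log2 difference of -0.40.

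**Figure D3:**
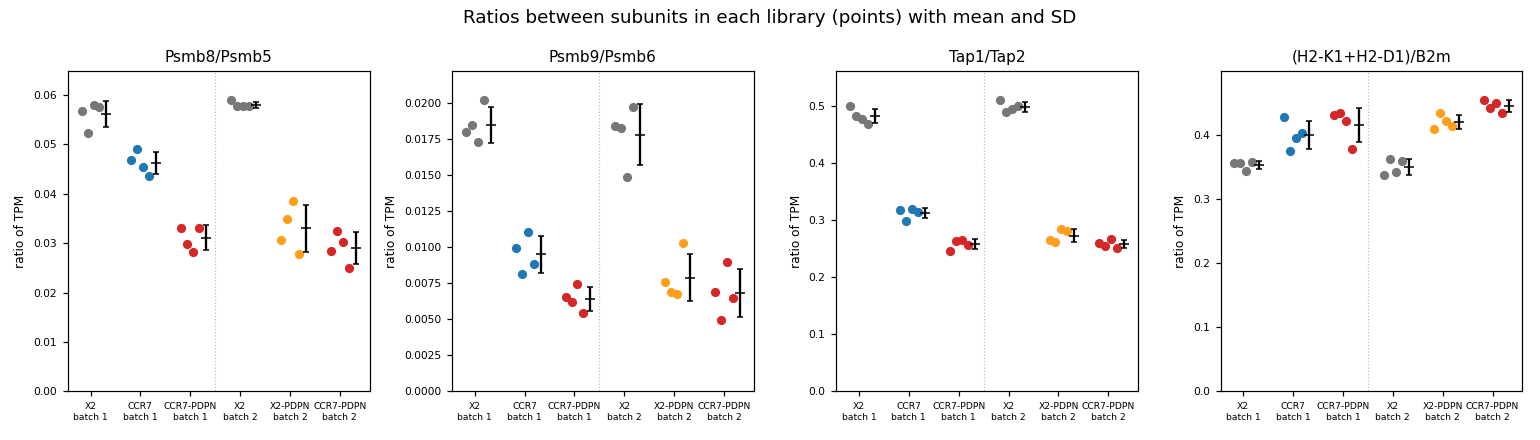
Ratio of TPM between partner subunits (y axes, from 0) in each library, by derivative and batch (x axis); points are libraries, and bars give the mean and SD of 4. The first 3 ratios are highest in X2 of both batches (Tap1 over Tap2 at 0.482 and 0.498), and the ratio of heavy chains to B2m is lowest there (0.353 and 0.350).

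Of the class I genes, 8 of 10 lie in the MHC region of chromosome 17, where Psmb9, Tap1, Psmb8 and Tap2 are immediate neighbours; B2m is on chromosome 2 and Nlrc5 on chromosome 8. The median of the other genes of the region lay near 0. Between Tapbp and H2-T23, 87 other genes were tested in batch 1 and 86 in batch 2, and their median log2 difference was -0.01 in CCR7 against X2, 0.08 in CCR7-PDPN against CCR7, 0.05 and 0.07 in CCR7-PDPN against X2 of batches 1 and 2, and 0.01 in X2-PDPN against X2. Within 1 Mb of B2m the 25 other genes had medians of -0.13 to -0.00 over the 6 comparisons. Around Nlrc5 most neighbours were lower than in X2 as well. Of 29 other genes tested within 1 Mb, 24 were lower in CCR7 than in X2 (25.2% of all genes were), with a median of -0.28. Of 31 tested in batch 2 the median was -0.27 in CCR7-PDPN against X2 and -0.15 in X2-PDPN against X2. In CCR7-PDPN against CCR7, where Nlrc5 fell by 0.53, 5 of the 29 were lower and 6 higher (20.7% and 20.9% of all genes), with a median of 0.01. These windows were chosen after the values had been seen, and the part of the neighbourhood in the fall of Nlrc5 was not tested.

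**Figure D4:**
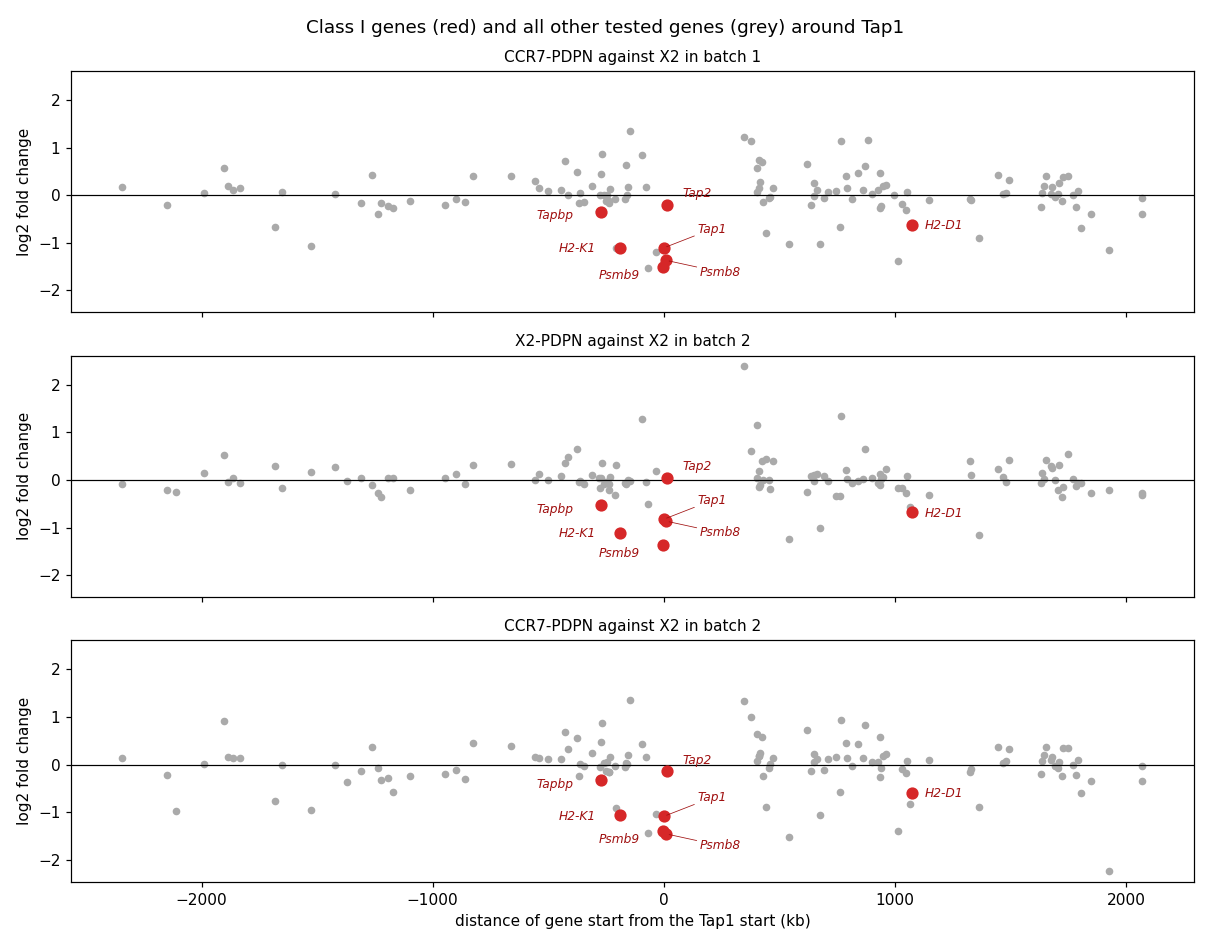
Log2 fold change (y axis) of every tested gene within the plotted stretch of chromosome 17 against the distance of its start from the Tap1 start in kb (x axis), in 3 comparisons with X2; class I genes are red and named, other genes grey. Grey points scatter around 0 while 6 of the 7 red ones lie clearly below it in each panel; Tap2 stays nearest 0 (-0.20, 0.05 and -0.14).

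The other inducible parts of the proteasome did not all follow Psmb8 and Psmb9. Psmb10, the third inducible catalytic subunit, rose in both receptor-bearing derivatives, by a log2 difference from X2 of 0.68 in CCR7 and of 0.66 and 0.72 in CCR7-PDPN of batches 1 and 2, and fell by 0.58 in X2-PDPN. Its level was 16.8, 26.9 and 26.1 TPM in X2, CCR7 and CCR7-PDPN of batch 1, and 16.2, 10.9 and 26.3 TPM in X2, X2-PDPN and CCR7-PDPN of batch 2. Psmb10 (chr8:105935735-105938444, - strand) has a neighbourhood that moved with it: the 55 other genes within 1 Mb had medians of 0.91 in CCR7 against X2, 0.96 and 0.98 in CCR7-PDPN against X2, and -0.22 in X2-PDPN against X2. Of the 55, 48 were higher in CCR7 than in X2, where 24% of all genes were. This window too was chosen after the values had been seen, and its part in the Psmb10 result was not tested. Psme1 and Psme2, the subunits of the inducible proteasome activator PA28, fell in all 6 comparisons, by 0.28 to 0.81 and by 0.21 to 0.61 on the log2 scale. Psme1 (chr14:55578123-55581529) and Psme2 (chr14:55587441-55591113) lie side by side. On the same chromosome are Irf9 (chr14:55603571-55610030), close to them, and Psmb5 (chr14:54614119-54618022). The falls of these genes are therefore not separate in position, and the part of their neighbourhood was not tested.

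Of the constitutive subunits, Psmb5 was lower in CCR7 than in X2 (-0.42) and in CCR7-PDPN than in X2 (-0.52 and -0.45), while in X2-PDPN against X2 it was at -0.05 and did not pass. Psmb6 and Psmb7 differed from X2 by -0.19 to 0.14 in log2 units. Among 25 further proteasome parts, 12 rose and 2 fell in CCR7 against X2, where 24% of all genes rose. In CCR7-PDPN against X2, 18 rose and 1 fell in batch 1 (30.3% of all genes rose). In batch 2 of that comparison 20 rose and 2 fell (32%). In X2-PDPN against X2, 2 rose and 12 fell, where 28.2% of all genes rose and 28.5% fell. None of the 25 passed 2-fold in any of the 6 comparisons, and their medians ran from -0.06 to 0.18. The small changes of these parts were thus mostly upward where Ccr7 had been introduced and mostly downward in X2-PDPN, while Psmb8 and Psmb9 went down in both.

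**Figure D5:**
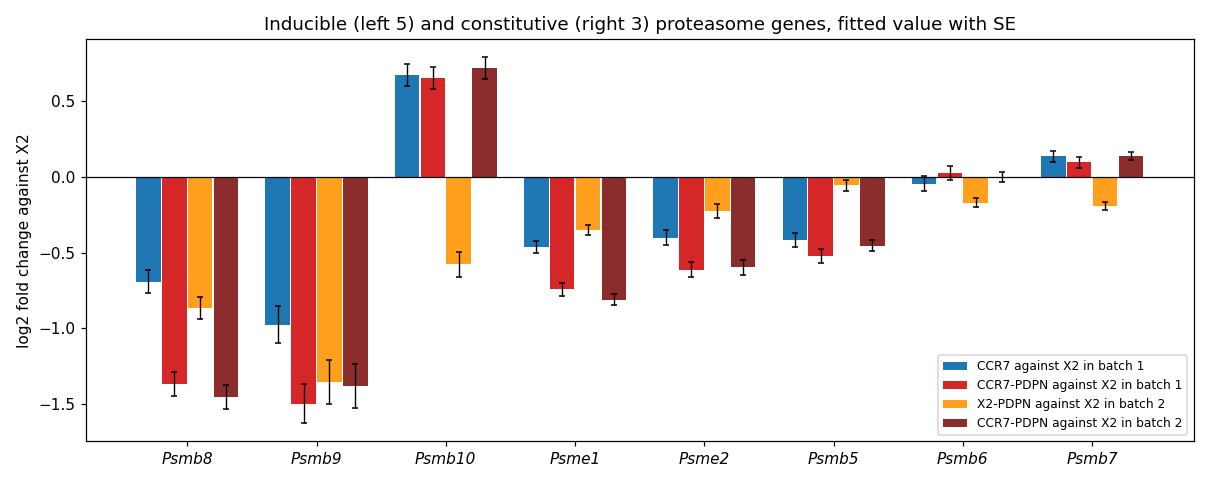
Log2 fold change against X2 (y axis, bars from 0, error bars SE) of 5 inducible and 3 constitutive proteasome genes (x axis) in 4 comparisons; CCR7-PDPN against X2 appears once for each batch. Psmb8 and Psmb9 lie below 0 in every comparison, Psmb10 lies above 0 except in X2-PDPN (-0.58), and Psmb6 and Psmb7 stay within -0.19 to 0.14.

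Other class I heavy chains were mostly silent: of 22 listed, 19 were matched by symbol and 6 were expressed highly enough to be tested. In CCR7-PDPN against X2, 5 of the 6 were lower and 1 higher in each batch, beside 30.6% of all genes lower in batch 1 and 32.8% in batch 2. H2-M3, which presents formylated peptides, fell by 1.19 and 1.17 on the log2 scale, from 15.1 TPM in X2 of batch 1 to 6.54 TPM in CCR7-PDPN, and by 1.13 in X2-PDPN. Hfe, a class I relative that acts in iron sensing, fell by 1.45 and 1.36 in CCR7-PDPN against X2 and by 1.1 in CCR7-PDPN against CCR7, whereas in X2-PDPN against X2 it stood at -0.06 and did not pass; between CCR7-PDPN and X2-PDPN the log2 difference was -1.29. Cd1d1, which presents lipids, fell by 1.01 and 0.98, and H2-T10 by 1.16 and 2.23, the latter on 6 to 22 counts per library in X2 and 1 to 5 in CCR7-PDPN. The 1 that rose, named after its values were seen, was Fcgrt, the neonatal Fc receptor, which was higher than in X2 by 0.59 and 0.63 in CCR7-PDPN and by 0.97 in X2-PDPN.

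The folding and trimming machinery that class I shares with other proteins of the endoplasmic reticulum was counted over 12 genes. Of the 12, 5 fell and 1 rose in CCR7 against X2 (25.2% of all genes fell), 8 fell and 1 rose in CCR7-PDPN against X2 of batch 1 (30.6% fell), 9 fell and 1 rose in batch 2 (32.8%), and 6 fell and 3 rose in X2-PDPN against X2 (28.5%). Calr, the lectin chaperone of the peptide-loading complex, fell by 0.55 and 0.57 on the log2 scale in CCR7-PDPN against X2 of batches 1 and 2, and Hspa5, a general chaperone of the compartment, by 0.58 and 0.57; both were named after their values were seen. None passed 2-fold in these comparisons, and the medians ran from -0.16 to -0.02. Among 6 cytosolic peptidases, 4 were lower and 1 higher in CCR7-PDPN against CCR7 (20.7% and 20.9% of all genes). In CCR7 against X2, 1 was lower and 2 higher (25.2% and 24%). CCR7-PDPN against X2 had 2 lower and 1 higher in each batch (30.6% and 30.3% of all genes in batch 1, 32.8% and 32% in batch 2). There was 1 each way in X2-PDPN against X2 (28.5% and 28.2%) and in CCR7-PDPN against X2-PDPN (32% and 31.2%). Again 0 passed 2-fold.

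Of 22 factors known to bind or drive class I promoters, Nlrc5 left aside, 21 were tested in batch 1 and 22 in batch 2. In CCR7 against X2, 10 were lower and 2 higher, where 25.2% of all genes were lower and 24% higher. In CCR7-PDPN against X2 the counts were 10 and 4 in batch 1 (30.6% and 30.3% of all genes) and 12 and 4 in batch 2 (32.8% and 32%). In X2-PDPN against X2 they were 7 and 6, close to the 28.5% and 28.2% of all genes. Irf9, a part of the complex that carries type I interferon signals to promoters, fell by 1.14 in CCR7, by 1.78 and 1.87 in CCR7-PDPN and by 1.42 in X2-PDPN against X2, with 31.6, 14.2 and 9.04 TPM in X2, CCR7 and CCR7-PDPN of batch 1. By contrast Irf1, an interferon-induced activator of class I promoters, was called in 0 of the 6 comparisons (log2 differences -0.04 to 0.12). Irf9 lies close to Psme1 and Psme2 on chromosome 14, and the part of that neighbourhood in its fall was not tested. Rfx5, the DNA-binding partner of Nlrc5, was higher in X2-PDPN than in X2 (0.21) and lower in CCR7-PDPN than in X2 in batch 2 (-0.16), with 0.01 in CCR7 against X2, which did not pass. Ciita, the relative of Nlrc5 that drives class II genes, was tested in batch 2 and was higher in X2-PDPN than in X2 (1.74), on 14 to 19 against 2 to 9 counts per library. Of 10 genes of the interferon receptor chains and their kinases and inhibitors, 3 were lower and 4 higher in CCR7 than in X2 (25.2% and 24% of all genes), and 0 passed 2-fold in any of the 6 comparisons.

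The class II list was mostly silent as well, with 4 of 10 genes tested. H2-DMa, a chaperone that loads class II molecules, fell by 1.2 in CCR7 and by 1.53 and 1.44 in CCR7-PDPN against X2, and its partner H2-DMb1 fell by 1.2 and 1.03 in CCR7-PDPN against X2. In X2-PDPN against X2, H2-DMa fell by 0.51, while H2-DMb1 was higher by 0.19 and H2-Oa, another class II chaperone, by 1.27. Of 5 tested ligands of natural killer receptors, 4 were lower and 1 was higher in CCR7-PDPN than in X2 in each batch (30.6% and 32.8% of all genes were lower). Clec2d, the ligand of an inhibitory natural killer receptor, had 33 to 64 counts per X2 library of batch 1, 3 to 10 per CCR7 library and 3 to 5 per CCR7-PDPN library; in batch 2 it had 46 to 62 counts per X2 library, 6 to 17 per X2-PDPN library and 0 to 3 per CCR7-PDPN library. Nectin2, a ligand of both activating and inhibitory receptors, fell by 1.38 and 1.37 in CCR7-PDPN against X2. The gene that rose, named after its values were seen, was Ulbp1, a ligand of the activating receptor NKG2D, by 0.63 and 0.65.

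The likeness of the class I genes to each other and to other genes was described by Pearson's r of log2 CPM, centred on the X2 mean of each batch, over the 24 libraries. These libraries share derivatives and batches, so r reflects mainly the group means and is given without a p. H2-D1, H2-K1, B2m and Nlrc5 correlated with each other at 0.979 to 0.987, and Tap2 with the other class I genes at 0.258 to 0.640. Outside the set, the 3 genes most like H2-K1 among 13681 were Tmcc3 (r = 0.987), Hgsnat (0.985) and Slc39a6 (0.983). Those most like Tap1 included Irf9 (0.987) and Atp6v1b2 (0.985), and those most like Nlrc5 were Rigi (0.982), Lgals9 (0.981) and Xaf1 (0.980).

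Markers of leukocytes, which express class I strongly, had a lower sum in every derivative than in X2. Whether such cells add to the class I levels was not tested. These markers were lower in sum in CCR7-PDPN than in X2-PDPN as well. Summed over the 16 markers, they stood at 52.7 to 61.5 CPM in X2, 18.9 to 24.6 CPM in CCR7 and 13.7 to 15.5 CPM in CCR7-PDPN of batch 1; in batch 2, where 5 of the 16 were listed, at 53.3 to 58.3 CPM in X2, 28.3 to 32.9 CPM in X2-PDPN and 11.9 to 14.5 CPM in CCR7-PDPN. Most of the sum was Cd68, a lysosomal protein of macrophages, with means of 47.4 CPM in X2, 16.8 CPM in CCR7 and 9.49 CPM in CCR7-PDPN of batch 1; Lyz2, lysozyme, went from 6.83 to 1.88 and 0.719 CPM, and Cd79a, a B cell receptor chain, went up from 0.494 to 2.34 and 3.29 CPM. The defining markers were at or near 0: in batch 1, Cd3e and Cd8a had 0 counts in all 12 libraries, Ptprc, which marks all leukocytes, 0 to 4, Itgam and Tyrobp 0 to 1, and 13 of the 16 had fewer than 20 counts in every library. Of the markers of fibroblasts, the summed level was 206 to 259 CPM in every group of batch 1 and 214 to 247 CPM in every group of batch 2. Nearly all of it was Pdgfra and Pdgfrb, while Dcn, Lum, Thy1 and Fap had 0 to 3 counts per library in batch 1 and Dpt 0 to 6 in batch 1 and 0 to 15 in batch 2.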

How the data were processed

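Poly(A) RNA of 24 libraries was prepared with a stranded mRNA kit and sequenced as single 75-base reads. The authors deposited whole-number counts of reads per Ensembl gene (GRCm38, mm10), as a table per batch, both unnormalised; the aligner and counter versions are not given in the sources used here. The batch 2 table lists fewer genes. Libraries were grouped by the labels and compared within a batch with edgeR 4.0.16 and limma 3.58.1 (R 4.3.3): TMM factors, the default filter on low counts, robust quasi-likelihood fits that pooled the spread of a batch's 3 groups, and Benjamini-Hochberg adjustment over all genes. A gene was called at adjusted p under 0.05, and passed the threshold when it also changed more than 2-fold. Contrasts across batches used the 6 group means of the 24 libraries. TPM were computed from the counts and the exon lengths in the batch 1 table. Ratios were tested by exact permutation. No columns were left unmapped, and the 36 replicate pairs within groups all differed by more than sampling noise (chi-square per degree of freedom 2.07 to 22.5). The edgeR step was tested on simulated data: for CCR7 against X2 (13178 genes) it recovered 99% of genes changed 1.5-fold and 100% of those changed 2-fold, for X2-PDPN against X2 (13193 genes) 97% and 100%, and for the contrast of contrasts (13451 genes) 91% and 100%. False calls numbered 3, 13 and 13 in the same order. The simulations changed 100 genes per fold, far fewer than the 6534 called in CCR7 against X2. How the step behaves with so many changed genes was not tested.

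All 10 class I genes are named; of the 127 genes in pathway lists, the 4 with the smallest adjusted p past the threshold per list and comparison could be named, plus Psmb5, Psmb6, Psmb7, Psmb10, Psme1, Psme2, Irf1, Rfx5 and Ciita; 8 list symbols were not matched, and some genes that this rule names are not reported here. The members and lists were chosen with earlier results of these data known. DESeq2 1.42.0, other scalings and filters, a replicate block and leaving out each library were tried as alternatives.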

Additional observations from a re-analysis of the deposited data

Results flagged for a closer look

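Among 54 groups of 4 libraries (9 genes in 6 groups), 1 held a library far from the other three by Dixon's test: Tapbp in CCR7-PDPN of batch 2, where replicate 4 stood at 129 CPM and the others at 139 to 141 CPM. Chance alone flags about 1 in 20 such groups.

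The PDPN difference was not the same in the CCR7 pair and the X2 pair for 7 of the 9 genes. All 7 were called in the same direction, as were 20.3% of all genes, and 40.8% of all genes were called either way. The test was that of the difference itself in the edgeR fit to 24 libraries. The log2 values (difference of CCR7-PDPN from CCR7 minus difference of X2-PDPN from X2) were 0.30 for H2-D1, 0.55 for H2-K1, 0.53 for B2m, 0.53 for Tap1, 0.47 for Tapbp, 0.83 for Psmb9 and 0.57 for Nlrc5. The 2 differences come from different batches, so receptor and batch cannot be told apart here. The comparison made in both batches, CCR7-PDPN against X2, differed between them by -0.12 to 0.09 for the 9 genes. It holds neither CCR7 nor X2-PDPN, so it cannot separate receptor from batch either.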

How the results depend on the processing

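Counts of class I genes lower at adjusted p under 0.05 were 9, 7, 9, 8, 9 and 3 in the 6 comparisons (in the order CCR7 against X2, CCR7-PDPN against CCR7, CCR7-PDPN against X2, X2-PDPN against X2, CCR7-PDPN against X2 in batch 2, CCR7-PDPN against X2-PDPN), which are also the counts with no fold threshold; for the contrast of contrasts it is 7 in place of 0. Over all genes the shares lower were 25.2%, 20.7%, 30.6%, 28.5%, 32.8% and 32% in the order of the 6 comparisons. In the contrast of contrasts 40.8% of all genes were called either way. DESeq2 made the same number of calls among the 9 genes in every comparison. Leaving out 1 library at a time changed the count past 2-fold in CCR7 against X2, from 0 to a range of 0 to 1: without CCR7 replicate 1 or 3, Psmb9 passed. In CCR7-PDPN against X2 the count of 4 became 4 to 5 in each batch: without CCR7-PDPN replicate 3 of that batch, Nlrc5 passed at -1.008 in batch 1 and -1.005 in batch 2. A filter of 10 CPM in at least 4 libraries left out Psmb9.

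Values of genes that had not been called changed sign in these cases. In CCR7-PDPN against X2-PDPN, B2m went to -0.0105 with upper-quartile scaling and -0.0115 with the 10 CPM filter, and leaving out 1 library gave -0.0042 to 0.019 for B2m and -0.17 to 0.12 for Psmb9. In the difference between batches, Nlrc5 went to -5.0e-05 with the 10 CPM filter, and leaving out 1 library gave -0.041 to 0.049 for Nlrc5, -0.051 to 0.011 for Tap1, -0.050 to 0.0014 for Tapbp and -0.26 to 0.037 for Psmb9. The cause was not tested. Nlrc5 in CCR7-PDPN against X2-PDPN lost its call at 0.12 with upper-quartile scaling (adjusted p = 0.0675) and the 10 CPM filter (adjusted p = 0.0686), and without X2-PDPN replicate 2 or 4 or CCR7-PDPN replicate 3.

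Libraries that share a replicate number correlated at -0.120 to 0.106 in their deviations from the group means, so the numbers do not pair them; a fit with the replicate block called 9, 7, 9, 8, 9 and 3 genes lower, as without it. Leaving out a library from a ratio leaves 3 against 4, for which the smallest exact permutation p is 0.0571, so that setting cannot pass. Depth limits Psmb9 (35 to 134 counts), and H2-T23 could not be tested.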
